A study of Homo sapiens with 4 samples.

Results

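The genes that move zinc, copper and iron across membranes, together with ferritin and the metallothioneins that hold these metals in the cytosol, were read from an RNA sequencing comparison of U87 cells with and without carnosine. Members were the rows of the count table whose symbol is a zinc transporter of the SLC30A or SLC39A families, a metallothionein (MT1 with a letter, MT2A or MT3), the zinc-sensing transcription factor MTF1, or a named copper or iron gene. These names gave 47 of 58219 genes, 25 for zinc, 11 metallothioneins, 6 for copper and 5 for iron, and the rule uses names and no measured value, although the set was proposed with earlier results of these data known. U87 is an established human glioblastoma line, here obtained from ATCC, and carnosine is a natural dipeptide built from beta-alanine and histidine. There were 2 libraries of cells given fresh medium with 50 mM carnosine and 2 of cells given the same medium without it, all extracted 24 h later. Both groups are the same line in the same serum-containing medium, so the comparison covers a single tumour line at 1 dose and 1 time.

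Carnosine can bind zinc and copper ions. In human cells SLC30A proteins carry zinc out of the cytosol, to the outside or into vesicles, and SLC39A proteins carry it in. MTF1 senses a rise in cytosolic zinc and switches on metallothionein genes and the zinc exporter SLC30A1 through short DNA words called metal response elements. Copper enters through SLC31A1, is handed on by small chaperones and leaves through the pumps ATP7A and ATP7B. Iron bound to transferrin enters through the receptor TFRC, is stored in ferritin and leaves through ferroportin, SLC40A1. Iron regulatory proteins stabilise TFRC mRNA when iron is scarce and act on ferritin mostly at translation, a step that RNA counts do not show.

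Library totals ran from 51632970 to 71766267 counts, and the members took between 0.606% and 0.696% of them. A list of 8 glioblastoma markers summed to between 8535 and 10350 CPM (a count relative to the scaled size of its library), carried by VIM, TNC and CD44, while GFAP and SOX2 were under 1 CPM and S100B had no count. Of 11 markers of other cell types 9 stayed under 1 CPM in each library. Their sum was 10.5 and 9.89 CPM in carnosine replicates 1 and 2, against 5.67 and 6.31 CPM in control replicates 1 and 2, with PECAM1 the largest part, and its part in the results was not tested. The labels do not say whether replicates came from separate cultures, so p values measure the spread between these libraries, which may be technical.

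Of the 47 members, 34 had enough counts to be tested. MT1E fell and was the 1 member past the test (edgeR's quasi-likelihood test, adjusted p under 0.05), with 0 members past it upward. This was 2.94% of the tested members, while 8.31% of all 16340 tested genes were called, 3.95% higher and 4.36% lower. At an unadjusted p under 0.05 there were 5 members by edgeR, 14.7% of those tested, against 27.4% of all tested genes. Among all genes DESeq2 called 13.5% (6.32% higher and 7.21% lower), and among the members it called MT1E, MT2A and MT1X lower and ATP7A higher. Limma-voom called 8.09% of all genes and, among the members, MT1E alone. Without 1 library edgeR called 3.69% of all genes (control replicate 1 left out), 2.94% (control replicate 2), 7.47% (carnosine replicate 1) or 9.27% (carnosine replicate 2). The median log2 fold change of the 34 was -0.05, against 0.00090 over all genes tested. Libraries of the groups did not overlap for 17 members, 7 with both carnosine libraries above both controls and 10 with both below, while 56.5% of all tested genes did not overlap (27.8% higher and 28.8% lower).

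**Figure D1:**
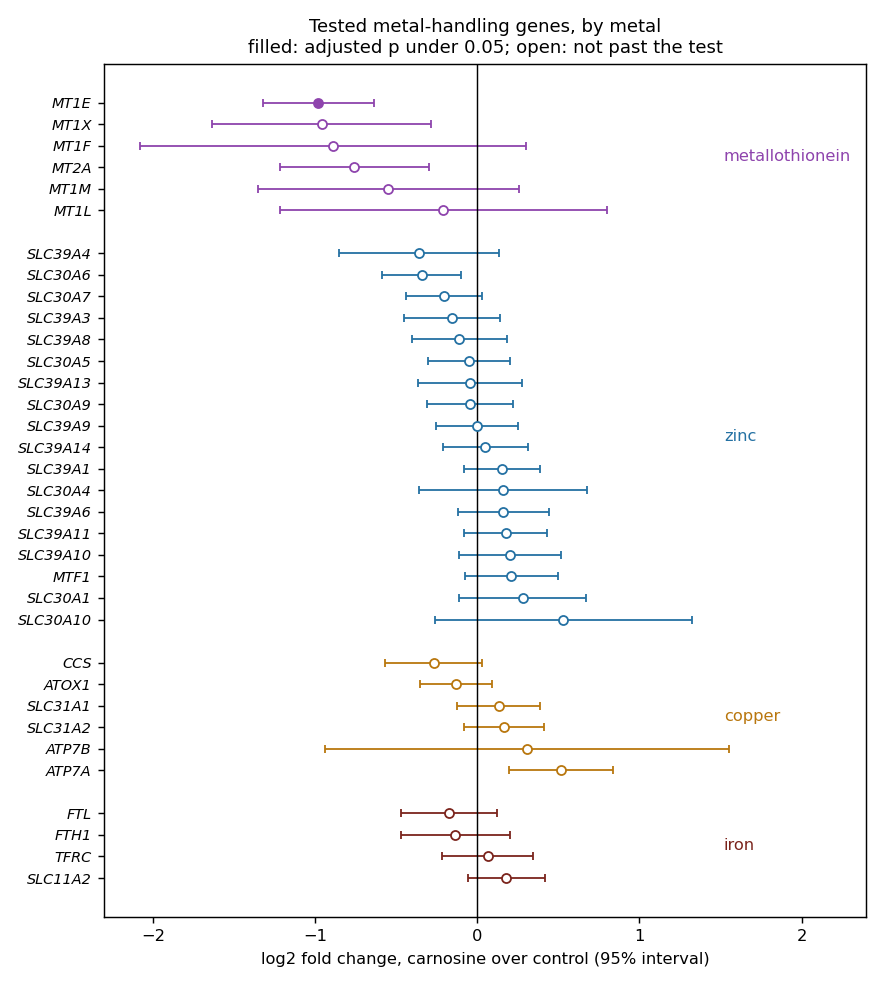
Log2 fold change of carnosine over control for the 34 tested members by metal, with 95% intervals from the edgeR fit; filled points passed the test at an adjusted p under 0.05. MT1E is the single filled point, the 6 metallothioneins lie below 0, and the zinc, copper and iron genes lie on both sides of 0.

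Metallothioneins are small cysteine-rich proteins that bind zinc and copper, and their human genes stand side by side on chromosome 16. MT1E, MT2A and MT1X are shown here by their coding sequences because the calls turn on them and their close likeness bears on how reads were assigned. The lines give GENCODE 29 coding sequence (GRCh38, plus strand) with the stop codon, and capitals mark bases that differ from MT1E at the same position.
MT1E: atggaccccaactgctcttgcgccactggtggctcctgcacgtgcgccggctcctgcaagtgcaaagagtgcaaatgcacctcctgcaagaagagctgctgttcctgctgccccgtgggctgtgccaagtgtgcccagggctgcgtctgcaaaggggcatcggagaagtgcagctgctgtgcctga
MT2A: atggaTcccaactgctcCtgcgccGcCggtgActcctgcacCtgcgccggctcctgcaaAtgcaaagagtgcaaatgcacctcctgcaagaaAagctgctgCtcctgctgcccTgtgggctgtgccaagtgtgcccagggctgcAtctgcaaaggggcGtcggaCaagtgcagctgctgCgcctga
MT1X: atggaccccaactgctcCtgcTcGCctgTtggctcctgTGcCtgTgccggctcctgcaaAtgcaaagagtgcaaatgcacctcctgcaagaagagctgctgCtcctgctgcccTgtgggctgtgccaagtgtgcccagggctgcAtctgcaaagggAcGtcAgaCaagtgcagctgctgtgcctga
Each is 186 bases long. MT2A differed from MT1E at 14 bases (92.5% identity) and MT1X at 17 (90.9% identity). Runs shared letter for letter were compared over whole annotated transcripts. The longest was 32 bases between MT1E and MT2A, 42 between MT1E and MT1X and 66 between MT2A and MT1X. Among the 6 tested metallothioneins the longest was 75 bases, between MT1E and MT1M, and MT1E shared up to 50 with MT1F. Reads were 101 bases long and paired.

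MT1E (ENSG00000169715.14, chromosome 16, 56625475 to 56627112, plus strand) had 69.2 and 65.0 CPM in carnosine replicates 1 and 2, against 114.6 and 150.5 CPM in control replicates 1 and 2. Both carnosine libraries lay below both controls, and the carnosine pair was the tighter of the pairs. MT1E averaged 67.1 ± 2.99 CPM with carnosine and 132.5 ± 25.4 CPM in controls (SD, n = 2 each). Its log2 fold change was -0.98 ± 0.14 (SE, adjusted p = 0.0170, edgeR), 1.97-fold lower, and its adjusted p stayed under 0.05 in all 12 other settings, with a highest value of 0.0262. The values are averages over the cells of a culture, so fewer cells with the mRNA and less mRNA per cell cannot be told apart.

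MT2A (ENSG00000125148.6, chromosome 16, 56608199 to 56609497), the metallothionein with the most counts, had 267.5 and 378.6 CPM in carnosine replicates 1 and 2, against 482.8 and 610.3 CPM in control replicates 1 and 2. The groups did not overlap, and replicate 2 was the higher library in each group. The log2 fold change was -0.76 ± 0.19, with a 95% interval from -1.22 to -0.30, and it missed the threshold (adjusted p = 0.0593, edgeR). It passed with DESeq2 (adjusted p = 0.00169), without control replicate 1 (0.0357) and without carnosine replicate 2 (0.00724), and it did not without control replicate 2 (0.196) or carnosine replicate 1 (0.0784).

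MT1X (ENSG00000187193.8, chromosome 16, 56682424 to 56684196) had 10.9 and 17.0 CPM in carnosine replicates 1 and 2, against 20.3 and 34.0 CPM in control replicates 1 and 2. Its libraries did not overlap, and replicate 2 was again higher within each group. The log2 fold change of -0.96 ± 0.28 did not pass (adjusted p = 0.0844, edgeR), although DESeq2 gave an adjusted p of 0.00700. Without control replicate 2 it was -0.55 (adjusted p = 0.249, edgeR) and without carnosine replicate 2 it was -1.31 (0.0170). Exons of MT1X share bases with an annotated gene on the same strand, AC026461.1, so its count depends on how shared bases were treated.

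The low metallothioneins were less precise. MT1M had 1.01 and 1.23 CPM in carnosine replicates 1 and 2, against 1.28 and 2.01 CPM in control replicates 1 and 2, and MT1F had 0.599 and 1.19 CPM against 1.03 and 2.28 CPM in the same order. MT1M did not overlap between the groups and MT1F did. MT1L, annotated as a transcribed pseudogene, had 2.86 and 6.20 CPM in carnosine replicates 1 and 2, against 3.56 and 6.90 CPM in control replicates 1 and 2. The log2 fold changes were -0.55 ± 0.34 for MT1M, -0.89 ± 0.50 for MT1F and -0.21 ± 0.43 for MT1L, and none of these 3 passed (adjusted p = 0.351, 0.307 and 0.801, edgeR). All 6 tested metallothioneins lay below 0 under each of the 4 scalings, while MT1L lay above 0 without control replicate 2 or carnosine replicate 1, and their median of -0.82 compares with 0.00090 over all genes. In 4 of the 6 both carnosine libraries were the lower ones, a pattern that 28.8% of all tested genes showed.

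**Figure D2:**
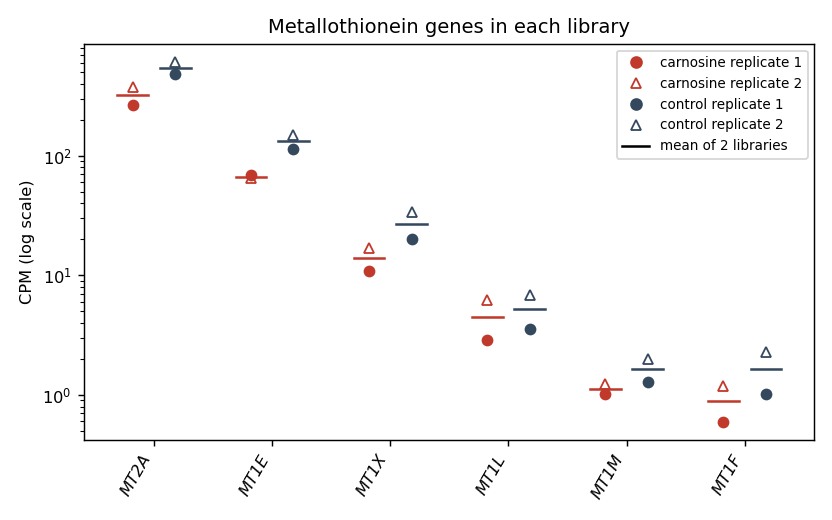
CPM (log scale) of the 6 tested metallothioneins in each library, with a bar at the mean of the 2 libraries of a group. Carnosine and control libraries do not overlap for MT2A, MT1E, MT1X and MT1M, and overlap for MT1L and MT1F.

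Summed over all 11 metallothionein rows, which does not depend on how reads were split among them, there were 352.2 and 469.3 CPM in carnosine replicates 1 and 2, against 623.5 and 806.0 CPM in control replicates 1 and 2. The ratio of the group means was 0.575. Reads with several matches, whose handling is not given, may be missing from the sum. Rows of 8 metallothionein pseudogenes outside this set held between 1 and 23 counts in a library. MT2A made up 76.0% and 80.7% of the metallothionein counts in carnosine replicates 1 and 2, against 77.4% and 75.7% in control replicates 1 and 2, so its share overlapped between the groups. The share of MT1E was 19.7% and 13.9% in the carnosine libraries, against 18.4% and 18.7% in the control libraries, with carnosine replicate 2 below the other libraries. None of 5 genes next to the cluster was called by edgeR, which called 8.31% of all tested genes. Both carnosine libraries lay above both controls for BBS2 and below both for NUP93 and NUDT21, while OGFOD1 and HERPUD1 overlapped. Libraries of the groups did not overlap for 56.5% of all tested genes. The log2 fold change of BBS2 was 0.39 ± 0.10 (edgeR, adjusted p = 0.0618) and that of HERPUD1 0.10 ± 0.15 (0.731). Those of NUP93, NUDT21 and OGFOD1 were -0.22 ± 0.11, -0.28 ± 0.12 and -0.10 ± 0.11 (adjusted p = 0.261, 0.202 and 0.603, edgeR). All were named after their values were seen.

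The DNA upstream of these genes was searched for the metal response element, spelled TGCACNC or TGCGCNC on either strand, in the 250 bases before each RefSeq gene start (GRCh38.p14). The sequence table held 49 such windows for 35 of the 47 symbols. MT2A and MT1X are printed as metallothioneins with a window in the table, and SLC30A1 as the other textbook MTF1 target, and MT1E had no entry. Capitals mark matches. The windows are chr16:56608334-56608583 (plus strand) for MT2A, chr16:56682220-56682469 (plus strand) for MT1X and chr1:211579162-211579411 (minus strand) for SLC30A1.
MT2A: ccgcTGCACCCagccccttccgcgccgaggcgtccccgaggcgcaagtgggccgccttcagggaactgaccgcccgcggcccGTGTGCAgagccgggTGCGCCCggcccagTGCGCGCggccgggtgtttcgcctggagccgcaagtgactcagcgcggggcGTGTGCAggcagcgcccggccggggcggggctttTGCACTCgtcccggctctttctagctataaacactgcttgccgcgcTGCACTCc
MT1X: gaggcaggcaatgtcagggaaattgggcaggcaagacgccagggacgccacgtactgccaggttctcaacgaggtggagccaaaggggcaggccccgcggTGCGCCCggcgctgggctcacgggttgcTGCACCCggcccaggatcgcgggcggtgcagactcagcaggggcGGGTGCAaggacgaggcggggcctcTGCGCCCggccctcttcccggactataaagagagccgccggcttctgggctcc
SLC30A1: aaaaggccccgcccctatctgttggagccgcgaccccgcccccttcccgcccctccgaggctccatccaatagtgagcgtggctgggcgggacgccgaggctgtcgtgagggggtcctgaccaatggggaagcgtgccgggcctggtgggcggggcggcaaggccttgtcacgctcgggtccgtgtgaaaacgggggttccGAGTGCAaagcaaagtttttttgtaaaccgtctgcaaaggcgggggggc
MT2A had 7 matches, 5 on the gene's strand and 2 on the other, MT1X had 4 and SLC30A1 had 1, and in these 3 windows no matches overlapped. MT1H, with 0 counts in each library, had 8 matches and MT1B, with at most 5 counts, had 3. All 4 metallothionein windows in the table held a match, as did 16 of 45 windows of the other members. Over all 35116 windows, 24.8% held at least 1 match, 0.370% at least 4 and 0.0313% at least 7. A match is a word in the sequence and was not measured as a binding site.

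Among the zinc transporters and MTF1, 18 of 25 members were tested and 0 passed edgeR, DESeq2 or limma-voom. Over all genes edgeR called 8.31%, DESeq2 13.5% and limma-voom 8.09%. In edgeR 1 member (SLC30A6, 5.56% of those tested) had an unadjusted p under 0.05, against 27.4% of all genes. Of the 18, 9 lay above 0 and 9 below, and the median log2 fold change was 0.02. MTF1 (chromosome 1) had 45.0 and 38.6 CPM in carnosine replicates 1 and 2, against 38.5 and 33.9 CPM in control replicates 1 and 2. The carnosine libraries lay above the controls, with carnosine replicate 2 and control replicate 1 nearly level. The log2 fold change of MTF1 was 0.21 ± 0.12 (95% interval -0.08 to 0.49, adjusted p = 0.317, edgeR).

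SLC30A1, the zinc exporter of the plasma membrane and an MTF1 target like the metallothioneins, had 76.1 and 107.5 CPM in carnosine replicates 1 and 2, against 72.1 and 79.2 CPM in control replicates 1 and 2. The groups overlapped, and carnosine replicate 2 stood above the other libraries. Its log2 fold change was 0.28 ± 0.17 (95% interval -0.11 to 0.67, adjusted p = 0.331, edgeR). It was 0.50 without carnosine replicate 1 (adjusted p = 0.0422) and 0.005 without carnosine replicate 2 (0.987), so its size turned on that library.

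SLC30A5, SLC30A6 and SLC30A7 carry zinc into the secretory pathway, and 0 of them passed. SLC30A6, which pairs with SLC30A5 in the early secretory pathway, had 29.9 and 33.3 CPM in carnosine replicates 1 and 2, against 40.0 and 40.1 CPM in control replicates 1 and 2. Its libraries did not overlap, and its log2 fold change was -0.34 ± 0.10 (adjusted p = 0.0876, edgeR). SLC30A7 of the Golgi had -0.20 ± 0.10 and no overlap, while SLC30A5 had -0.05 ± 0.11 and overlapped. SLC30A9, a mitochondrial zinc transporter, had 72.9 and 80.6 CPM in carnosine replicates 1 and 2, against 73.7 and 84.6 CPM in control replicates 1 and 2, with overlapping groups. Its log2 fold change was -0.04 ± 0.11. The low SLC30A4 and the manganese exporter SLC30A10 had 0.16 ± 0.22 and 0.53 ± 0.33, with SLC30A10 at no more than 1.65 CPM in any library. Adjusted p values of these 5 genes ran from 0.240 for SLC30A7 to 0.843 for SLC30A9.

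The importers had log2 fold changes between -0.36 and 0.20, and 0 of the 10 tested passed. SLC39A14, which also carries iron and manganese, had 224.4 and 250.3 CPM in carnosine replicates 1 and 2, against 221.7 and 237.3 CPM in control replicates 1 and 2, and the groups overlapped. Its log2 fold change was 0.05 ± 0.11, with a 95% interval from -0.21 to 0.31. SLC39A1, a plasma membrane importer, had 174.1 and 183.7 CPM in carnosine replicates 1 and 2, against 159.2 and 162.8 CPM in control replicates 1 and 2, with no overlap and a log2 fold change of 0.15 ± 0.10 (adjusted p = 0.377, edgeR). The other 8 tested importers ran from -0.36 ± 0.21 for SLC39A4, at most 3.43 CPM in a library, to 0.20 ± 0.13 for SLC39A10, which pairs with SLC39A6 (0.16 ± 0.12). SLC39A8, which carries zinc and manganese, had -0.11 ± 0.12, SLC39A3 -0.15 ± 0.13, SLC39A13 -0.05 ± 0.13, SLC39A9 -0.002 ± 0.11 and SLC39A11 0.18 ± 0.11. The adjusted p values of the 10 importers were 0.320 or higher (edgeR).

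Of the 6 copper genes all were tested and 0 passed edgeR or limma-voom, while DESeq2 called ATP7A. Over all genes edgeR called 8.31%, limma-voom 8.09% and DESeq2 13.5%. In edgeR 1 of the 6 (16.7%) had an unadjusted p under 0.05, against 27.4% of all genes. The median log2 fold change was 0.15, against 0.00090 over all genes. ATP7A (ENSG00000165240.18, chromosome X, 77910656 to 78050395), the copper pump mutated in Menkes disease, had 21.6 and 17.9 CPM in carnosine replicates 1 and 2, against 14.1 and 13.5 CPM in control replicates 1 and 2. Both carnosine libraries lay above both controls. The log2 fold change was 0.52 ± 0.13 (95% interval 0.20 to 0.84) and missed the threshold (adjusted p = 0.0621, edgeR), while DESeq2 gave an adjusted p of 0.0232 and the test passed without carnosine replicate 2 (0.0270). Without control replicate 1, control replicate 2 or carnosine replicate 1 the adjusted p was 0.178, 0.235 and 0.184. Exons of ATP7A share bases with an annotated PGK1 transcript on the same strand, so its count depends on how shared bases were treated. ATP7B, the pump mutated in Wilson disease, had 16 and 20 counts in carnosine replicates 1 and 2, against 23 and 12 in control replicates 1 and 2, too few to place its difference more closely than a log2 interval of -0.94 to 1.55.

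Copper uptake and delivery genes did not pass the test. SLC31A1, the importer CTR1, had 111.5 and 127.0 CPM in carnosine replicates 1 and 2, against 105.7 and 112.1 CPM in control replicates 1 and 2, with overlapping groups. Its log2 fold change was 0.13 ± 0.11 (95% interval -0.13 to 0.39, adjusted p = 0.490, edgeR). SLC31A2, or CTR2, had 0.16 ± 0.10 without overlap, and 1579 of its 2504 exonic bases lie under exons of FKBP15 on the opposite strand. ATOX1, which carries copper to the pumps, had 50.6 and 53.6 CPM in carnosine replicates 1 and 2, against 55.8 and 58.3 CPM in control replicates 1 and 2. The groups did not overlap, and the log2 fold change was -0.13 ± 0.09 (adjusted p = 0.419, edgeR). CCS, which delivers copper to the superoxide dismutase SOD1, had -0.27 ± 0.13 (adjusted p = 0.221, edgeR), also without overlap.

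**Figure D3:**
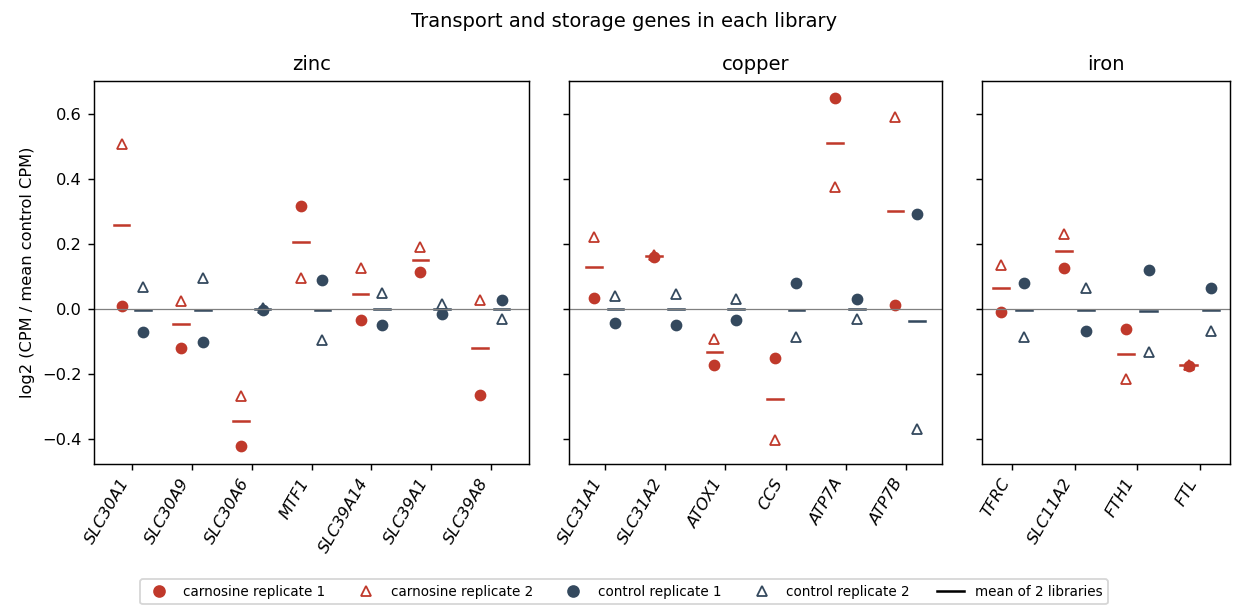
Log2 of CPM relative to the mean control CPM for named zinc, copper and iron genes in each library, with a bar at the mean of the 2 log2 values of a group. ATP7A and SLC30A6 show the largest separations between carnosine and control libraries here, and TFRC, SLC39A14 and SLC30A9 overlap.

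Of 5 iron genes 4 were tested, and 0 passed edgeR, DESeq2 or limma-voom, with 0 at an unadjusted p under 0.05. Over all genes these tests called 8.31%, 13.5% and 8.09%, and 27.4% had an unadjusted p under 0.05 in edgeR. TFRC (ENSG00000072274.12, chromosome 3, 196027183 to 196082189), the transferrin receptor, had 358.8 and 397.3 CPM in carnosine replicates 1 and 2, against 382.1 and 340.6 CPM in control replicates 1 and 2. The libraries of the groups were interleaved. The log2 fold change was 0.06 ± 0.12 with a 95% interval from -0.22 to 0.35, or 0.861 to 1.27 as a ratio. This interval measures the spread between these libraries, which may be technical. SLC11A2, or DMT1, which moves ferrous iron across membranes, had 65.7 and 70.7 CPM in carnosine replicates 1 and 2, against 57.5 and 63.0 CPM in control replicates 1 and 2. Its groups did not overlap, and its log2 fold change of 0.18 ± 0.10 did not pass (adjusted p = 0.302, edgeR).

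Ferritin transcripts were the most abundant of the members. FTL, the light chain, had 2117 and 2125 CPM in carnosine replicates 1 and 2, against 2498 and 2283 CPM in control replicates 1 and 2. Both carnosine libraries were the lower ones, and the log2 fold change was -0.17 ± 0.13 (95% interval -0.47 to 0.12, adjusted p = 0.426, edgeR). FTH1, the heavy chain with the ferroxidase site, had 1873 and 1683 CPM in carnosine replicates 1 and 2, against 2124 and 1783 CPM in control replicates 1 and 2, and the groups overlapped. Its log2 fold change was -0.14 ± 0.14 (95% interval -0.47 to 0.20, adjusted p = 0.593, edgeR). FTH1 counts divided by FTL counts gave 0.885 and 0.792 in carnosine replicates 1 and 2, against 0.850 and 0.781 in control replicates 1 and 2, so the balance of the chains overlapped between the groups. Both genes have many processed copies in the genome: 25 FTH1 pseudogene rows summed to between 299 and 459 counts in a library and 14 FTL pseudogene rows to between 363 and 581, against at least 84754 for FTH1 and 106994 for FTL. Of the 2030 exonic bases of FTH1, 1267 lie under exons of BEST1 on the opposite strand.

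The other 13 members had too few counts to test. SLC40A1, SLC39A7, SLC30A2, MT1A, MT1G and MT1H had 0 counts in each library, which allows up to between 0.0422 and 0.0596 CPM by counting error. SLC40A1 is ferroportin, and of its 9 protein-coding neighbours within 500 kb 0 averaged under 1 count. SLC39A7, which releases zinc from the endoplasmic reticulum, lies on chromosome 6 where 24 of 36 such neighbours averaged under 1 count. Why this stretch had few counts was not tested, so the 0 of SLC39A7 is not read as absence of the mRNA. MT3, the metallothionein of the brain, had 1 count in control replicate 2 and none elsewhere. The other 6 had a few counts, given here for carnosine replicates 1 and 2 and then control replicates 1 and 2. MT1B had 0 and 4 with carnosine against 1 and 5 in controls, and SLC30A3, which fills synaptic vesicles with zinc, had 1 and 5 with carnosine against 4 and 8 in controls. SLC30A8, the zinc transporter of insulin granules, had 0 and 1 with carnosine against 0 and 1 in controls. SLC39A2 had 0 and 4 with carnosine against 6 and 2 in controls, SLC39A5 had 0 and 2 with carnosine against 0 and 0 in controls, and SLC39A12 had 4 and 0 with carnosine against 3 and 4 in controls. Counts this low do not allow the groups to be compared.

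Per kilobase of exon, so that genes can be compared, levels spanned several orders of magnitude. FTL came first with 2415 CPM per kb with carnosine and 2723 in controls, followed by FTH1 (876 with carnosine and 962 in controls) and MT2A (248.7 with carnosine and 420.7 in controls). MT1E came next, at 63.8 CPM per kb with carnosine and 126.0 in controls, and SLC39A1 (52.8 with carnosine and 47.5 in controls) was the most abundant zinc transporter per length, ahead of SLC39A14 (34.2 with carnosine and 33.1 in controls). TFRC lay between them at 47.9 with carnosine and 45.8 in controls. Among copper genes SLC31A1 led with 23.3 CPM per kb with carnosine and 21.2 in controls, and ATP7A had 1.81 with carnosine and 1.26 in controls. The lengths are unions of annotated exons, many of which these cells may not use, so the order is approximate.

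**Figure D4:**
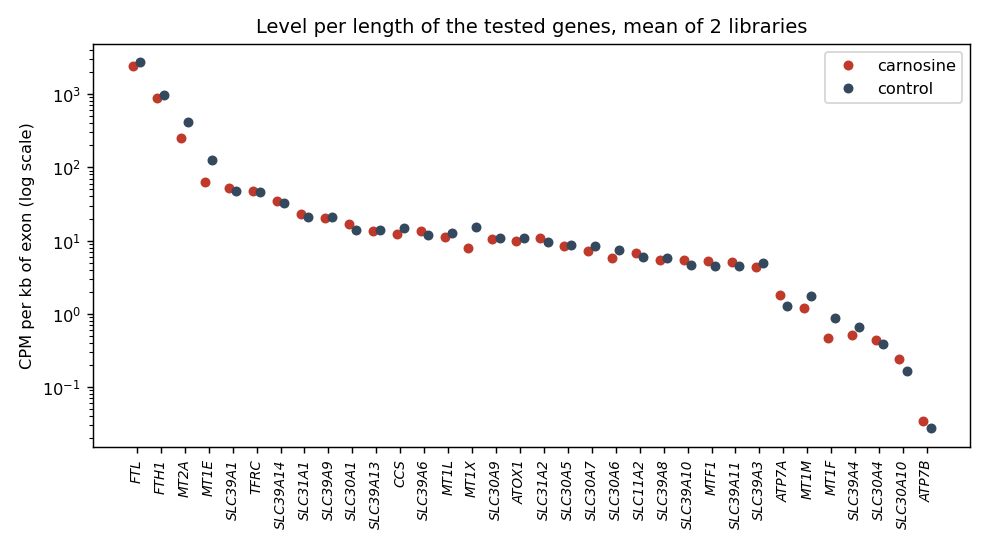
Level per kilobase of exon (CPM per kb, log scale) of the 34 tested members, as the mean of the 2 carnosine libraries and of the 2 control libraries, ordered by the mean of both. Ferritin and MT2A stand at the top and ATP7B at the bottom.

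Genes around these pathways were read from 6 lists with 53 genes, 43 of them tested. Of these, 2 rose and 1 fell (edgeR), 6.98% against 8.31% of all genes. At an unadjusted p under 0.05 there were 12, or 27.9%, a share near the 27.4% of all genes. DESeq2 called 6 of the 43 higher and 3 lower, against 6.32% higher and 7.21% lower among all genes. Limma-voom called 2 higher and 1 lower, against 8.09% of all genes in either direction. Among 14 genes of copper delivery and copper enzymes CUTC fell, and the median log2 fold change of the list was -0.03, while DESeq2 called CUTC lower and PAM higher. CUTC, a copper-binding protein, had 11.7 and 8.10 CPM in carnosine replicates 1 and 2, against 21.0 and 19.0 CPM in control replicates 1 and 2. The groups stood well apart, with a log2 fold change of -1.01 ± 0.19 (2.02-fold lower, adjusted p = 0.0279, edgeR), and CUTC was called without any 1 of the 4 libraries.

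Of 8 tested genes of mitochondrial iron and iron-sulfur clusters 1 rose (12.5%), while edgeR called 8.31% of all tested genes, 3.95% higher. ISCU, the scaffold on which iron-sulfur clusters are built, had 79.0 and 79.7 CPM in carnosine replicates 1 and 2, against 56.8 and 53.8 CPM in control replicates 1 and 2. Both pairs were tight and apart, with a log2 fold change of 0.52 ± 0.09 (1.44-fold higher, adjusted p = 0.0243, edgeR), and the call ended without control replicate 1 (0.0842) or control replicate 2 (0.152). Of 8 tested heme genes 1 rose (12.5%, against 3.95% of all tested genes called higher), FLVCR2, a membrane transporter first described for heme. FLVCR2 had 26.8 and 24.8 CPM in carnosine replicates 1 and 2, against 17.4 and 16.3 CPM in control replicates 1 and 2. Its libraries did not overlap, its log2 fold change was 0.61 ± 0.11 (adjusted p = 0.0278, edgeR), and its call ended without control replicate 1 (0.0789) or control replicate 2 (0.129).

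In the heme list 4 of the 8 tested genes (50%) had an unadjusted p under 0.05 in edgeR, against 27.4% of all genes. It was 3 of 8 (37.5%) in the mitochondrial iron list and 2 of 14 (14.3%) in the copper delivery list. Over the 43 tested genes of all lists together the share was 27.9%. DESeq2 called FLVCR1 and FLVCR2 higher and HMOX1 and SLC48A1 lower, and called 13.5% of all genes. FLVCR1 had 15.58 and 16.02 CPM in carnosine replicates 1 and 2, against 11.7 and 10.7 CPM in control replicates 1 and 2. SLC48A1, a heme transporter of lysosomes, had 20.3 and 16.9 CPM in carnosine replicates 1 and 2, against 28.97 and 24.73 CPM in control replicates 1 and 2. Neither overlapped between the groups, and neither passed edgeR, with log2 fold changes of 0.50 ± 0.12 for FLVCR1 (adjusted p = 0.0565) and -0.53 ± 0.14 for SLC48A1 (0.0633). These 2 genes, like HMOX1, were named after their values were seen.

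HMOX1, the stress-induced heme oxygenase that frees iron from heme, had 35.3 and 31.5 CPM in carnosine replicates 1 and 2, against 46.0 and 89.7 CPM in control replicates 1 and 2. Both carnosine libraries lay below both controls, and control replicate 2 stood far above control replicate 1. The log2 fold change of -1.02 ± 0.28 did not pass (adjusted p = 0.0690, edgeR; 0.00204 with DESeq2). It was -1.43 without control replicate 1, where it passed (adjusted p = 0.000452, edgeR), and -0.47 without control replicate 2 (0.167). HMOX2, the constitutive form, had no count in any library, and 9 of its 25 protein-coding neighbours within 500 kb averaged under 1 count. Why these rows had few counts was not tested, so the 0 is not read as absence of the mRNA.

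The lists of iron sensing and of iron reduction, plasma and systemic iron had 0 calls among 6 and 5 tested genes (edgeR and limma-voom). In edgeR 2 and 1 of them had an unadjusted p under 0.05, against 27.4% of all genes. DESeq2 called ACO1 and STEAP3, and called 13.5% of all genes. NCOA4, which carries ferritin to lysosomes, had 266.6 and 311.2 CPM in carnosine replicates 1 and 2, against 228.0 and 239.2 CPM in control replicates 1 and 2. The groups did not overlap and the log2 fold change was 0.31 ± 0.12 (edgeR, adjusted p = 0.152). ACO1, the cytosolic aconitase that also acts as an iron regulatory protein, had 263.2 and 316.1 CPM in carnosine replicates 1 and 2, against 215.0 and 209.2 CPM in control replicates 1 and 2. It did not overlap either, at 0.45 ± 0.12 (adjusted p = 0.0691, edgeR). STEAP3, an endosomal ferrireductase, had 519 and 522 CPM in carnosine replicates 1 and 2, against 397.2 and 390.1 CPM in control replicates 1 and 2, with a log2 fold change of 0.40 ± 0.10 (adjusted p = 0.0616, edgeR). CYBRD1, a ferrireductase of the plasma membrane, had 97.6 and 111.2 CPM in carnosine replicates 1 and 2, against 95.7 and 108.1 CPM in control replicates 1 and 2, with overlapping groups and a log2 fold change of 0.04 ± 0.12 (adjusted p = 0.883, edgeR). Of the list of other zinc and divalent metal channels 2 genes were tested. TRPM7, a channel of the plasma membrane, had 101.3 and 105.4 CPM in carnosine replicates 1 and 2, against 82.1 and 103.0 CPM in control replicates 1 and 2. MCOLN1, a lysosomal channel, had 14.4 and 14.3 CPM in carnosine replicates 1 and 2, against 15.5 and 14.0 CPM in control replicates 1 and 2. Both overlapped between the groups, with log2 fold changes of 0.16 ± 0.13 for TRPM7 and -0.03 ± 0.12 for MCOLN1, and 0 passed edgeR, DESeq2 or limma-voom or had an unadjusted p under 0.05.

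How far the calls depended on the test and the libraries is shown for MT1E and 4 members called in at least 2 alternatives only. CCS, MT1F, MTF1, SLC30A6 and SLC30A7 were called with the replicate block alone and are not shown. MT1E was called in each setting, and MT2A, MT1X, ATP7A and SLC30A1 in 5, 5, 4 and 2 of the 12 alternatives.

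**Figure D5:**
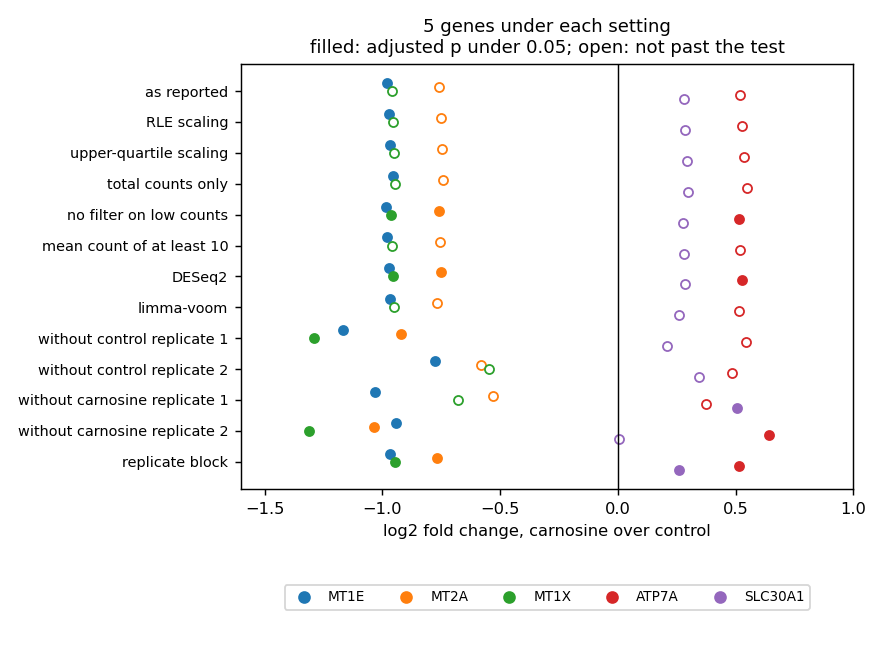
Log2 fold change of carnosine over control for MT1E, MT2A, MT1X, ATP7A and SLC30A1 as reported and in 12 other settings; filled points had an adjusted p under 0.05. MT1E is filled in each row. MT2A and MT1X are open as reported and filled in 5 of the 12 other settings, and SLC30A1 lies at 0.005 without carnosine replicate 2.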

How the data were processed

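Total RNA of U87 cells (200 ng a library) was sequenced after depletion of ribosomal RNA, with stranded libraries, 4 in a pool, read as pairs of 101 bases, per the labels' protocols. The authors deposited raw counts per gene without normalization. The tools, per the submitters' processing notes, were HTSeq 0.6.1, HISAT2 2.1.0 and bcl2fastq 2.17.0, with the build hg38. Not given in the sources used here are the annotation, the strand setting and the handling of reads with several matches, so counts of overlapping genes and close copies are uncertain.

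From these counts edgeR 4.0.16 (R 4.3.3) tested 16340 genes kept by filterByExpr (a count of 10 in 2 libraries, total 15), with TMM scaling, group as the only term, a two-sided quasi-likelihood test and Benjamini-Hochberg adjustment over all genes at 0.05. Residual degrees of freedom were 2, and intervals are 95%, from the t distribution with 6.92 degrees of freedom; the SE is the absolute log2 fold change over the root of F. CPM uses the scaled library sizes. Intervals on counts of 0 use 3 counts and cover counting error only. DESeq2 1.42.0, limma 3.58.1, other scalings and filters, leaving out each library and a replicate block were alternatives. Scripts were tested on simulated data.

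Replicates were not copies, since chi-square over its degrees of freedom came to 58.4 between the carnosine libraries and 37.1 between the control libraries. Coordinates, exons and coding sequences come from GENCODE 29 (GRCh38), matched for 57881 of 58219 genes, and upstream sequences from RefSeq (GRCh38.p14).

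Members and lists were chosen with earlier results of these data known. Named with each library's value were the called members, the 2 with the most counts in the zinc export, zinc import, copper, iron and metallothionein groups, MTF1, SLC30A1, MT2A, SLC31A1, TFRC, SLC40A1, FTH1 and FTL, and of each further list up to 4 called genes or the 2 with the most counts. MT1X, MT1M, MT1F, MT1L, SLC30A6, ATP7A, ATP7B, SLC11A2, BBS2, NUP93, FLVCR1, SLC48A1 and HMOX1 were given their values beyond that rule, after they were seen. The same holds for NUDT21, OGFOD1 and HERPUD1.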

Additional observations from a re-analysis of the deposited data

How the results depend on the processing

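The call of MT1E held in all 12 alternatives. The count of metal genes called was 1 as reported, 4 without a filter on low counts and 4 with DESeq2 (1 higher, ATP7A, and 3 lower, MT1E, MT2A and MT1X), and between 1 and 4 without 1 library (0 to 1 higher, 1 to 3 lower). Over all genes 1358 were called as reported, 3145 without the filter, 2211 with DESeq2 and between 505 and 1595 without 1 library. Of the genes tested, those called were 8.31% of 16340 as reported, 12.0% of 26103 without the filter and 13.5% of 16340 with DESeq2. With 1 library left out the group with a single library is assumed to vary like the other, and the design has fewer libraries.

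Replicate numbers are shared by the groups, but the labels do not say that they pair samples. With the replicate block, 10 metal genes were called (3 higher, 7 lower) and 5767 of all genes (35.3%). Deviations of same-numbered libraries correlated with r = 0.31 across genes, and 2 pairs are too few to settle a pairing.

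The log2 ratio of -0.80 for metallothionein and pseudogene counts summed ranged from -1.01 to -0.60 without 1 library and moved by less than the spread between replicates in 3 other scalings. Of 34 tested members 24 kept their direction in each alternative. The other 10 were not called in any alternative and changed sign in at least 1. Without 1 library ATP7B ran from -0.0032 to 0.68, MT1L from -0.87 to 0.34, SLC30A4 from -0.0023 to 0.30, SLC30A5 from -0.14 to 0.026, SLC30A9 from -0.14 to 0.054, SLC39A13 from -0.20 to 0.086, SLC39A14 from -0.037 to 0.12, SLC39A8 from -0.27 to 0.025, SLC39A9 from -0.093 to 0.076 and TFRC from -0.019 to 0.15. SLC39A9 was 0.0045 with RLE scaling and with DESeq2, 0.013 with upper-quartile scaling, 0.020 with total counts and 2.7e-05 with a mean count of at least 10. The cause was not tested for any of these. Intervals were wide for ATP7B, with 12 to 23 counts in a library (log2 -0.94 to 1.55), MT1F (-2.08 to 0.30) and MT1L (-1.22 to 0.80). They were also wide for MT1M (-1.35 to 0.26), SLC30A10 (-0.26 to 1.32) and MT1X, with 658 to 1992 counts (-1.63 to -0.29). The parts of depth and of spread between replicates in these widths were not tested.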
